A study of Mus musculus with 9 samples.

Results

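The circadian clock genes examined here were the period gene Per1, the cryptochrome gene Cry1, the nuclear receptor gene Nr1d1 and the transcription factor gene Hlf. They were picked by symbol, and all 4 were found among the 2996 genes of the table. Their messenger RNA was measured by sequencing in 9 libraries of perfused mouse brain, with 3 libraries per group, labelled C, L and H. The mice are described as 24 months old. Group L drank water with 0.5 µg per litre of perfluorooctane sulfonate (PFOS), a persistent fluorinated surfactant, and group H with 50 µg per litre, for 7.5 months. Group C served for comparison, and no PFOS dose is stated for it. The sources used here do not give strain, sex, the hour at which tissue was taken or the part of the brain used. They do not tie each library to its own animal either, and the p-values therefore speak only to the spread among these libraries, which may be technical.

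The mammalian clock is a loop of transcription and repression that runs in nearly every cell. The CLOCK and BMAL1 proteins bind E-box sequences and switch on the Per, Cry and Nr1d1 genes, and the PER and CRY proteins then return to the nucleus and block that activation. REV-ERB alpha, the product of Nr1d1, represses Bmal1 and Cry1, while HLF belongs to a small family of factors that bind D-box sequences and carry the rhythm to other genes. Levels of these transcripts rise and fall over the day, and Per1 is also induced quickly by cAMP signals and by glucocorticoids.

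The start regions of the 4 genes are shown to see which of the elements known from clock and cAMP regulation each holds. The sequences are from RefSeq on GRCm38.p6 and run from 250 bases before the start site to 50 bases from it on, read on the strand of the gene. Capitals mark matches to an E-box (CACGTG), an E-prime box (CACGTT, or AACGTG on the other strand), a D-box (TTATGTAA or TTATGCAA) or a cAMP response element (TGACGTCA), searched on both strands. No match overlapped another.
Per1, chr11:69098699-69098998, plus strand: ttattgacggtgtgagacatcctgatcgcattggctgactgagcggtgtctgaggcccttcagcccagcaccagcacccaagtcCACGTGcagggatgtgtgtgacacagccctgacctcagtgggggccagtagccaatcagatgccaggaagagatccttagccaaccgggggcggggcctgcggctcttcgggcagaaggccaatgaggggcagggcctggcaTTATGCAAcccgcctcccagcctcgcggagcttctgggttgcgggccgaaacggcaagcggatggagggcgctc
Cry1, chr10:85185005-85185304, minus strand: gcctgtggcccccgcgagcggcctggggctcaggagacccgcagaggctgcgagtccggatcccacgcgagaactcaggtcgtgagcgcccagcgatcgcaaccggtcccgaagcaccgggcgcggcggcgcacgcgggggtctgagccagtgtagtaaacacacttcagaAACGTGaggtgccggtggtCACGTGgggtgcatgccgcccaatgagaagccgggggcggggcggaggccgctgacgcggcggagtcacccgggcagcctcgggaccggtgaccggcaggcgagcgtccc
Nr1d1, chr11:98775328-98775627, minus strand: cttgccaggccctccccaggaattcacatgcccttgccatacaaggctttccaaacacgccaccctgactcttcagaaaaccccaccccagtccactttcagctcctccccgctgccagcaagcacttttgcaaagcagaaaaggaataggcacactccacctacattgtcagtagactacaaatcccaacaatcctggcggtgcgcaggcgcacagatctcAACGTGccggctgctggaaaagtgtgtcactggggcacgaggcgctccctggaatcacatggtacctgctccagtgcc
Hlf, chr11:90390868-90391167, minus strand: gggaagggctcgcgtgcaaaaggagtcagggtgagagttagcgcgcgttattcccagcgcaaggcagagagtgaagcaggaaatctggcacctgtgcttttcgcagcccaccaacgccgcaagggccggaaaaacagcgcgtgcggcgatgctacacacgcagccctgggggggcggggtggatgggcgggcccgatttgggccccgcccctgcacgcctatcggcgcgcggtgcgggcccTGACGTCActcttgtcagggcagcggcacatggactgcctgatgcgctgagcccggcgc

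In Per1 an E-box began at base -166 and a D-box at -24, counted from the start site. A further RefSeq start site of Per1, at base 69100152 of chromosome 11, held none of these letters in its window. In Cry1 an E-prime box began at -79 and an E-box at -60, in Nr1d1 an E-prime box at -28, and in Hlf a cAMP response element at -9. Of 32851 mouse start windows of the same length, 7.15% held the E-box, 4.68% the E-prime box, 0.938% the D-box TTATGTAA, 0.743% the D-box TTATGCAA and 1.79% the cAMP response element. These are matches of letters, and binding was not measured here.

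Values are FPKM, the fragments of a gene per kilobase of its transcript, scaled to the reads of the library. Read totals recovered from them were 15371513 to 20431208 per library. Group differences refer to log2(FPKM + 1) and were tested with limma over the 2226 genes above 1 FPKM in at least 3 libraries, all 4 clock genes among them. Libraries stood apart by brain region. The cerebellar granule cell gene Gabra6 reached 254 FPKM in library C1 (replicate 1 of group C), 55.0 in L3 and 14.8 in L1, was at 2.48 in H1 and 0.0603 in L2, and was listed at 0 in the other 4. The pallial marker genes, 3 of 9 listed, summed to 7.17 FPKM in C1 and 6.38 in L3, against 59.7 in L1 and 105 to 204 elsewhere. The striatal genes, 2 of 9 listed, summed to 57.0 FPKM in L1, 53.0 in H2, 25.0 in C3 and 22.1 in C2, and to 2.67 or less elsewhere. A regional score, the mean log2 of the cerebellar markers less that of the pallial ones, was 6.10 in C1, 4.03 in L3 and -0.41 to -4.29 in the other libraries. Values of a group are listed in the order of replicates 1 to 3. Bulk values do not tell fewer cells of a type from less RNA per cell.

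Of the 4 genes, Nr1d1 and Hlf had lower means in the exposed groups than in C, Nr1d1 most in H and Hlf most in L. The differences of Per1 and Cry1 were at most 0.28 in size on the log2 scale. Nr1d1 reached -0.67 in H against C and Hlf -0.69 in L against C, while Hlf in H against C was -0.18. Means were lower in H than in C for 3 of the 4 (all but Cry1), against 47.3% of all tested genes, and lower in L than in C for all 4, against 43.7%. None passed an adjusted p of 0.05 in any comparison (limma, lowest adjusted p among the 4 genes 0.89), and neither did any other gene, so that the share of all tested genes past it was 0%. At an unadjusted p under 0.05 there were 71 tested genes (3.19%) in H against C, 87 (3.91%) in L against C, 30 (1.35%) in H against L and 91 (4.09%) with L and H together against C, and limma-voom had 68, 77, 32 and 80. Of the 4 clock genes, Nr1d1 in H against C, Hlf in L against C and Nr1d1 in the exposed groups against C were among them. In none of the 4 genes were the groups free of overlap, against 10.3% of all tested genes in H against C, 6.65% in L against C, 9.07% in H against L and 2.29% for the exposed groups against C. H against C and L against C share the C libraries, so their values are given side by side and are not independent of each other.

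**Figure D1:**
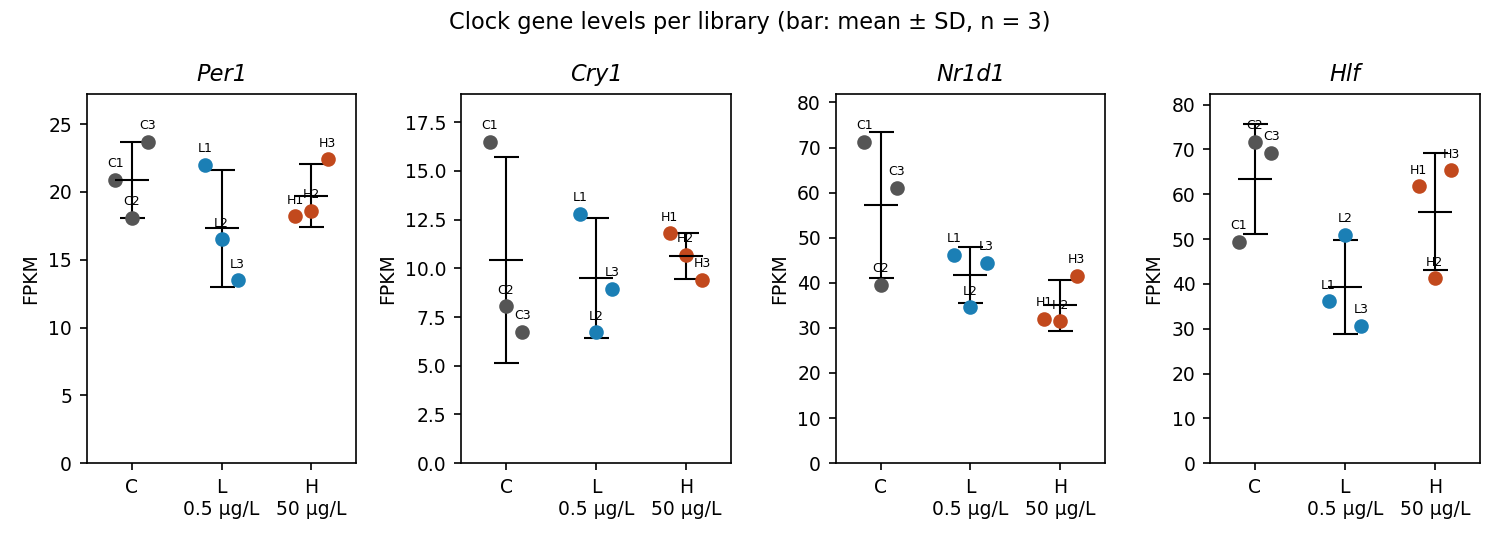
Level of each clock gene in FPKM (vertical axis, from 0) in the 9 libraries by group. Points are libraries and bars show the mean ± SD of 3. Nr1d1 lies highest in C1 and C3, Hlf lies lowest in L3 and L1, and the groups overlap in every panel.

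Nr1d1 (ENSMUSG00000020889, chromosome 11, 98767932 to 98775333 on GRCm38, minus strand) encodes the haem-binding repressor REV-ERB alpha. It was at 71.3, 39.6 and 61.1 FPKM in the C libraries, at 46.2, 34.6 and 44.4 in the L libraries, and at 32.0, 31.5 and 41.6 in the H libraries. C1 and C3 held the highest levels of all 9 libraries and H1 and H2 the lowest, but C2 lay below H3 and within the L libraries, so the groups overlapped. Means were 57.3 ± 16.2 FPKM in C, 41.7 ± 6.23 in L and 35.0 ± 5.70 in H (SD, n = 3 each). All 6 exposed libraries were below the mean of C, and 3 of them below every C library.

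The log2 difference of Nr1d1 was -0.67 ± 0.23 (SE) in H against C, with a 95% confidence interval of -1.19 to -0.14. Its unadjusted p of 0.0192 ranked 14 among 2226 genes, and the adjusted p was 0.89 (limma). In L against C the difference was -0.42 ± 0.23 (interval -0.95 to 0.11, adjusted p = 0.998), and in H against L it was -0.25 ± 0.23 (-0.77 to 0.28, adjusted p = 0.961). With both exposed groups set against C it was -0.54 ± 0.20 (unadjusted p = 0.0251, adjusted p = 0.933). Exact two-sided permutation tests gave p = 0.2 in H against C, where 3 against 3 libraries cannot go below 0.1, and p = 0.0952 for the exposed groups against C (0.533 for both after Benjamini-Hochberg adjustment over 16 tests).

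C1, the library with the highest Nr1d1 level, was also the one with the highest Gabra6 level. Without it the H against C difference was -0.49 ± 0.23, and without both C1 and L3 it was again -0.49 ± 0.23. With the regional score in the fit it was -0.55 ± 0.20 (limma, adjusted p = 0.941). Without C2 it was -0.91 ± 0.19 (limma, adjusted p = 0.394). The difference in L against C was -0.24 without C1 and -0.66 without C2. Nr1d1 overlaps the thyroid hormone receptor gene Thra on the opposite strand in 263 of its 3077 exonic bases. The sources used here do not say whether reads were assigned by strand, so reads of either gene in that stretch cannot be told apart.

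Hlf (ENSMUSG00000003949, chromosome 11, 90336536 to 90390895, minus strand) encodes hepatic leukemia factor, a basic leucine zipper activator of the same family as DBP and TEF. Its level was 49.4, 71.7 and 69.2 FPKM in the C libraries, 36.1, 50.9 and 30.7 in the L libraries, and 61.8, 41.2 and 65.3 in the H libraries. L3 and L1 held the lowest levels, C2 and C3 the highest, and L2 lay just above C1. Means were 63.5 ± 12.2 FPKM in C, 39.3 ± 10.5 in L and 56.1 ± 13.0 in H (SD, n = 3 each).

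In L against C the log2 difference of Hlf was -0.69 ± 0.25 (SE), with a 95% confidence interval of -1.26 to -0.12. The unadjusted p was 0.0235, which ranked 39 of 2226, and the adjusted p was 0.998 (limma). H against C gave -0.18 ± 0.25 (-0.76 to 0.39, adjusted p = 0.89), and this turned to 0.02 without H2. H against L gave 0.51 ± 0.25 (-0.07 to 1.08, adjusted p = 0.961), and the exposed groups against C gave -0.44 ± 0.22 (adjusted p = 0.933). By exact permutation p was 0.2 in L against C and 0.2 in H against L (0.533 each after adjustment over 16 tests).

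Beside the regional markers, Hlf was at 30.7 and 49.4 FPKM in the cerebellum-rich L3 and C1, and at 36.1 and 41.2 in L1 and H2, which had the highest striatal sums. C2 and C3, with the next highest striatal sums, held the most Hlf, at 71.7 and 69.2. L2, H1 and H3, low in striatal markers, held 50.9, 61.8 and 65.3. Their summed cerebellar markers were at 35.5, 91.2 and 51.6 FPKM, against 871 in C1 and 262 in L3, and H1 stood above C2 and L1 in that sum. Nearly all of it was Pvalb in L2, H1 and H3, at 35.3, 85.7 and 51.4 FPKM, and in C2, at 82.2. The L against C difference of Hlf was -0.86 ± 0.26 without C1 alone, -0.53 ± 0.27 without L3 alone and -0.70 ± 0.26 without both. With the regional score in the fit as a covariate that difference was -0.66 ± 0.18 (limma, adjusted p = 0.42). The part of striatal content in it was not tested.

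**Figure D2:**
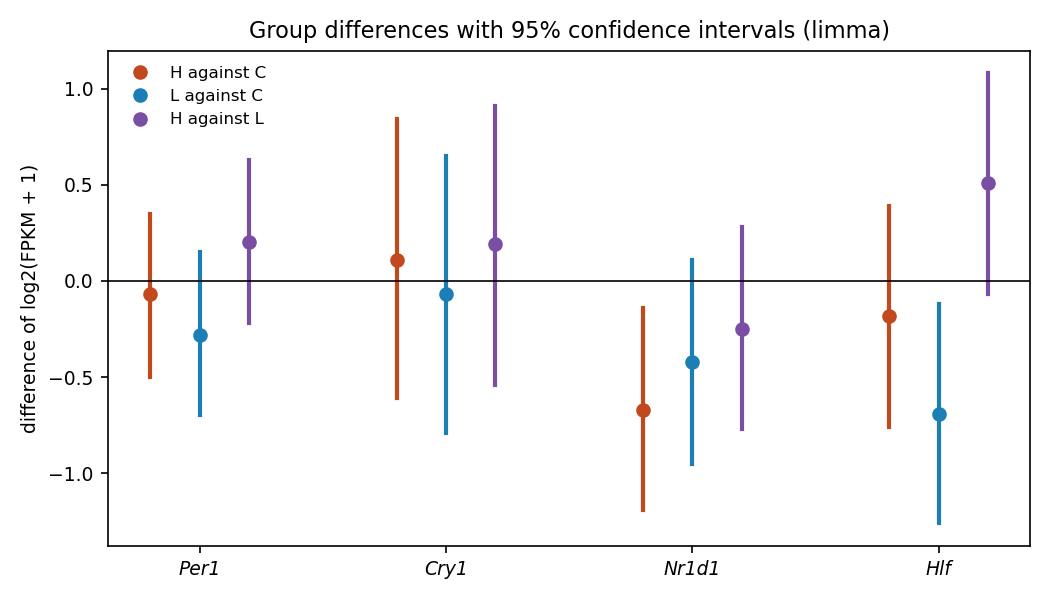
Differences between groups on the log2(FPKM + 1) scale (vertical axis) for the 4 clock genes in the 3 pairwise comparisons. Points are limma estimates and lines their 95% confidence intervals. The intervals of Nr1d1 in H against C and of Hlf in L against C lie below 0, and the other intervals drawn cross it.

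**Figure D3:**
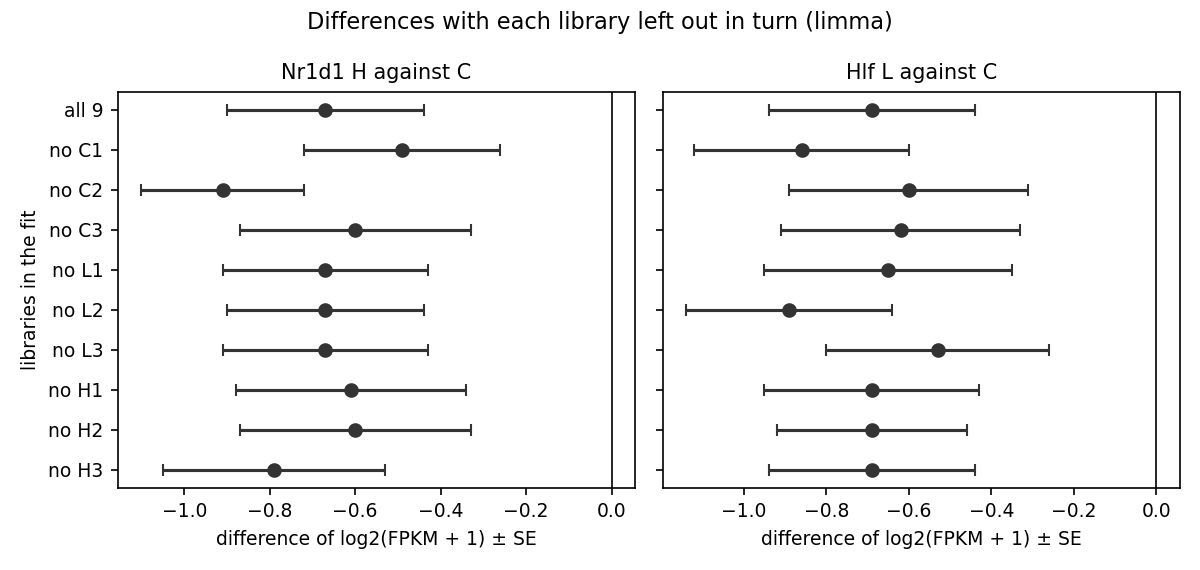
Log2 difference ± SE (horizontal axis) of Nr1d1 in H against C and of Hlf in L against C with all 9 libraries and with each left out in turn (rows). Every estimate lies below 0, from -0.91 to -0.49 for Nr1d1 and from -0.89 to -0.53 for Hlf. Leaving out L libraries cannot move the estimate for Nr1d1, nor leaving out H libraries that for Hlf.

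Per1 (ENSMUSG00000020893, chromosome 11, 69095217 to 69109960, plus strand), a repressor of the negative limb and a gene induced by light and stress signals, varied least. It was at 20.9, 18.1 and 23.7 FPKM in the C libraries, at 22.0, 16.5 and 13.5 in the L libraries, and at 18.2, 18.6 and 22.4 in the H libraries. C3 and H3 were highest and L3 and L2 lowest, with the H libraries inside the range of C. Means were 20.9 ± 2.79 FPKM in C, 17.3 ± 4.31 in L and 19.7 ± 2.33 in H (SD, n = 3 each). The log2 difference was -0.07 ± 0.19 in H against C (interval -0.50 to 0.35), -0.28 ± 0.19 in L against C (-0.70 to 0.15) and 0.20 ± 0.19 in H against L (-0.22 to 0.63), with adjusted p of 0.942, 0.998 and 0.961 (limma). Exact permutation gave p of 0.7, 0.3 and 0.4. The difference in L against C rested on L3, being -0.12 without it, and it was -0.45 without L1. H against C was 0.02 without C3.

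Cry1 (ENSMUSG00000020038, chromosome 10, 85131700 to 85185064, minus strand), a repressor of CLOCK and BMAL1 and itself a target of REV-ERB alpha, was the least abundant of the 4. It was at 16.5, 8.05 and 6.74 FPKM in the C libraries, at 12.8, 6.72 and 8.94 in the L libraries, and at 11.8, 10.7 and 9.41 in the H libraries. C1 was highest, and C3 and L2 were lowest and nearly equal. Means were 10.4 ± 5.31 FPKM in C, 9.48 ± 3.06 in L and 10.6 ± 1.17 in H (SD, n = 3 each). The log2 difference was 0.11 ± 0.32 in H against C (interval -0.61 to 0.84), -0.07 ± 0.32 in L against C (-0.79 to 0.65) and 0.19 ± 0.32 in H against L (-0.54 to 0.91), with adjusted p of 0.947, 0.998 and 0.961 (limma). The intervals of H against C and of L against C reach beyond 1.5-fold in both directions.

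The values for Cry1 depended on single libraries. Without C1 the difference was 0.47 ± 0.23 in H against C and 0.28 in L against C (adjusted p = 1 and 0.749), while H against C was -0.01 without C2 and -0.12 without C3. L against C was 0.13 without L2. On the regional score C1 scored 6.10, L1 -0.41, H1 -2.52 and H2 -3.55, and these were also the 4 libraries with the most Cry1, in that order. L3 scored 4.03 and held 8.94 FPKM. The part of regional content in Cry1 was not tested beyond the covariate, with which H against C was 0.35 ± 0.21 (adjusted p = 0.941).

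**Figure D4:**
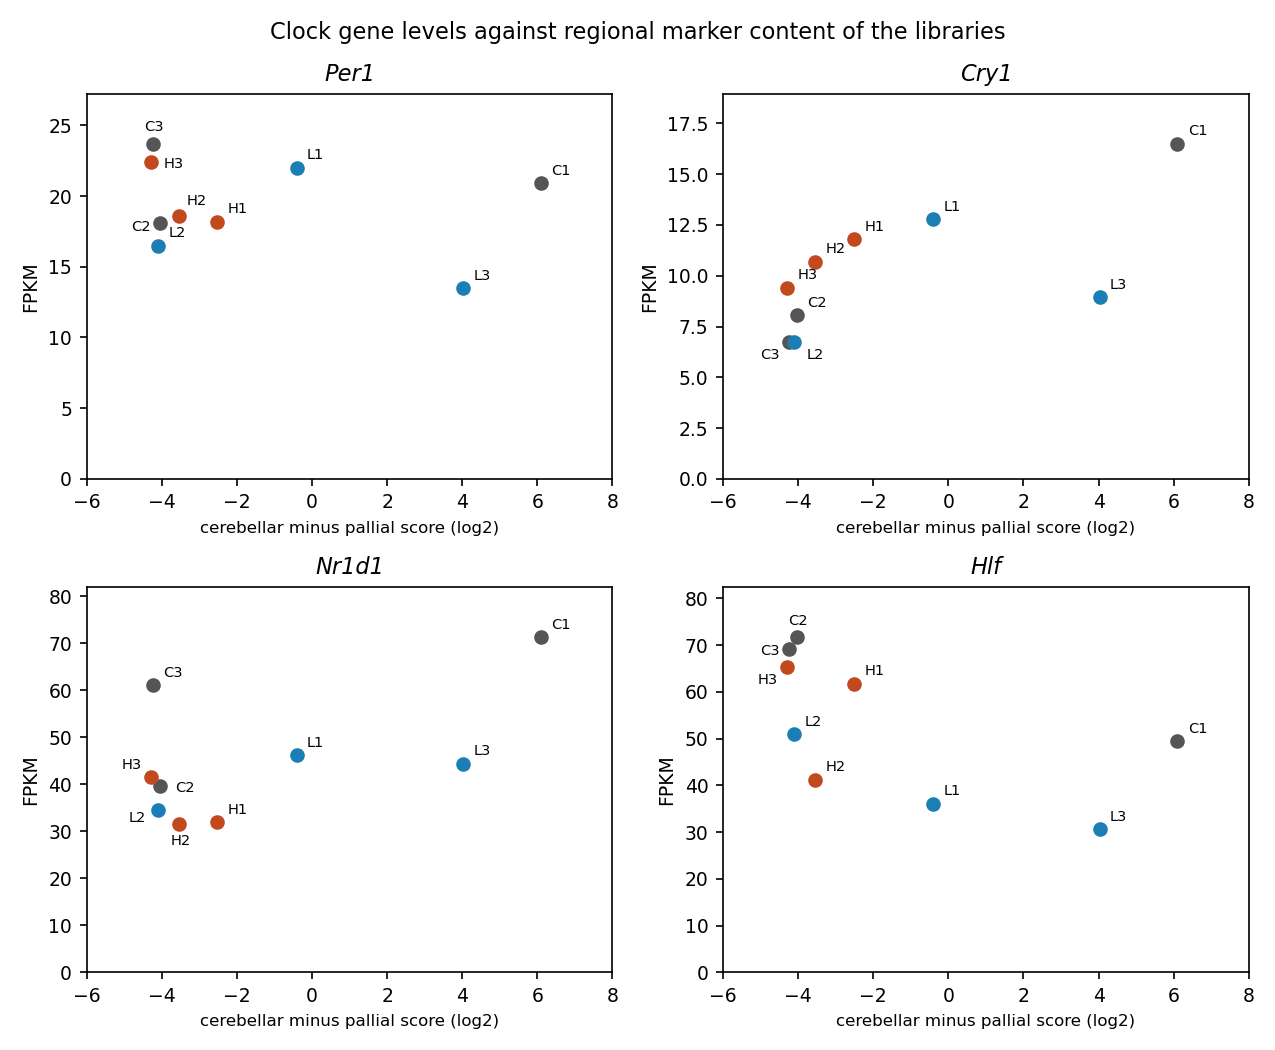
Level of each clock gene in FPKM (vertical axis, from 0) against the regional score, cerebellar less pallial markers on the log2 scale (horizontal axis), in the 9 libraries, coloured by group (grey C, blue L, orange H). C1 and L3 lie far to the right at 6.10 and 4.03; Cry1 is highest in C1 and Hlf lowest in L3.

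The spread within groups was well above counting error for all 4 genes. Per1 was covered by 1391 to 2391 reads per library, Cry1 by 346 to 947, Nr1d1 by 1801 to 3766 and Hlf by 3764 to 9229. Counting alone gives an error of 2.27%, 4.19%, 2.06% and 1.30%, whereas libraries of one group differed by 17.5%, 33.7%, 21.7% and 24.0% (pooled SD of the natural log). Counting error was thus small beside the spread between libraries. The residual SD on the log2 scale was 0.24 for Per1, 0.44 for Cry1, 0.31 for Nr1d1 and 0.34 for Hlf, against a median of 0.25 over all tested genes. Cry1 was thus at percentile 82.7 of the tested genes, Hlf at 71.2, Nr1d1 at 65.6 and Per1 at 48.2.

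Compared per transcript length, the order of levels changed between libraries only at the top. Cry1 was lowest and Per1 next in all 9 libraries, with Per1 between 1.26 and 3.51 times Cry1. Nr1d1 lay 1.70 to 3.42 times above Per1. Hlf exceeded Nr1d1 in 6 libraries, by 1.13-fold in C3 to 1.93-fold in H1, and lay below it in the other 3, at 0.693 times its level in C1, 0.783 in L1 and 0.691 in L3. Those 3 libraries are the ones with the highest Gabra6 levels, and L1 also came next after C1 and L3 on the regional score, at -0.41. By the summed cerebellar markers, 4 of 13 listed, H1 with 91.2 FPKM and C2 with 82.2 stood above L1 with 79.8. Nearly all of that sum was Pvalb in H1 (85.7) and C2 (82.2), against 44.9 in L1. Gabra6 was at 2.48 in H1, 0 in C2 and 14.8 in L1.

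The ratio of Nr1d1 to Per1 was 3.42, 2.19 and 2.58 in the C libraries, 2.10, 2.10 and 3.30 in the L libraries, and 1.75, 1.70 and 1.85 in the H libraries. The H libraries were thus the 3 lowest, without overlap with C or L, and they were close to each other. The highest ratios, in C1 and L3, were those of the libraries with the highest regional scores, 6.10 and 4.03. H1, H2 and H3 scored -2.52, -3.55 and -4.29, L1 -0.41, and C2, C3 and L2 -4.04, -4.24 and -4.10. The part of regional content in the ratio was not tested. This ratio was chosen after its values were seen and is a description with no test. Over all tested genes taken singly, 10.3% had no overlap between H and C. No such share was computed for ratios between genes or for H set apart from both C and L.

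**Figure D5:**
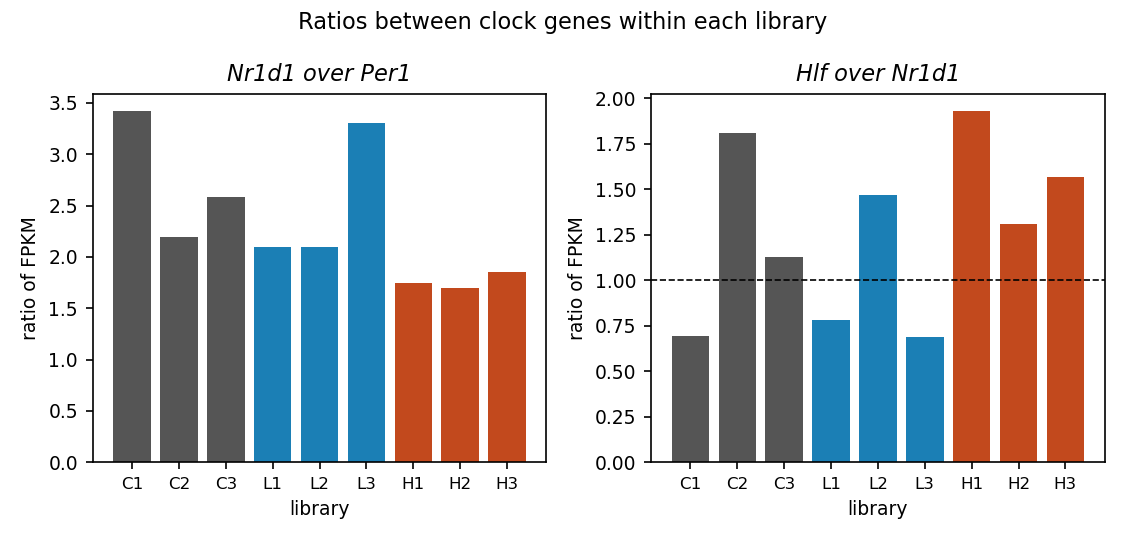
Ratio of FPKM between clock genes within each library (bars, from 0), for Nr1d1 over Per1 and Hlf over Nr1d1, with C in grey, L in blue and H in orange. Nr1d1 over Per1 is 1.70 to 1.85 in the H libraries and at least 2.10 elsewhere. Hlf over Nr1d1 is below 1 (dashed line) in C1, L1 and L3.

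Across libraries the 4 genes did not rise and fall as a block. For the 6 pairs, Pearson's r over the 9 libraries was 0.49 for Per1 and Hlf, 0.44 for Per1 and Nr1d1, 0.26 for Cry1 and Nr1d1, 0.20 for Per1 and Cry1, 0.04 for Nr1d1 and Hlf, and -0.33 for Cry1 and Hlf. Spearman's rho was 0.30, 0.45, 0.20, 0.27, -0.07 and -0.43 in the same order. No pair passed (exact permutation of pairings, lowest p = 0.179 for r and 0.23 for rho, adjusted over 6 pairs 0.709 and 0.736).

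As C1 and L3 stood apart, the pairs were also computed over the other 7 libraries. There r was 0.82 and rho 0.64 for Per1 and Nr1d1 (exact permutation p of r = 0.019, adjusted over 6 pairs 0.114), and -0.56 and -0.54 for Cry1 and Hlf (exact permutation p of r = 0.19). With the 2 libraries farthest from the median of Per1, C3 and L3, left out instead, r for Per1 and Nr1d1 was 0.58. For Per1 and Hlf it was -0.21 without them, so that relation rested on those libraries.

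The genes whose pattern over the 9 libraries was most like that of each clock gene, by Pearson's r of log2(FPKM + 1) among 2222 other tested genes, are given as extremes of many comparisons. For Nr1d1 they were Kansl1 (0.96), Med15 (0.95), which encodes a Mediator subunit, and the helicase gene Helz (0.93), and most opposed were the aldose reductase gene Akr1b3 (-0.98) and the ribosomal protein gene Rpl19 (-0.97). Akr1b3 was at 3.24, 4.52 and 3.37 FPKM in the C libraries, 4.23, 5.11 and 4.21 in the L libraries, and 4.83, 4.96 and 4.37 in the H libraries. It was lowest in C1 and C3, where Nr1d1 was highest.

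For Hlf the most alike were Ahr (0.93), which encodes the aryl hydrocarbon receptor, Vps13d (0.91) and Hivep2 (0.90), and the most opposed Cyb5r3 (-0.96), a cytochrome b5 reductase, and the AMP deaminase gene Ampd3 (-0.93). For Cry1 they were Tpra1 (0.93), Zfp276 (0.91) and Tlcd1 (0.89) against Zmat2 (-0.89) and the spectrin gene Sptbn1 (-0.87). For Per1 they were Ctc1 (0.89), of the telomere-capping CST complex, Ubxn6 (0.88) and Akap8l (0.86) against the phosphatase gene Mtmr4 (-0.96) and the calcium-binding protein gene Cabp7 (-0.93). All these r lay at 0.75 or beyond in size over the 7 libraries without C1 and L3.

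Ctc1 lies on the same chromosome as Per1, at 69015911 to 69036473, which is 58743 bases away. The nearest tested gene, the synaptic vesicle gene Vamp2 at 2832 bases, had r = 0.78 with Per1, and the next, Aloxe3 at 15935 bases, had -0.24. Chromosome 11 held 24.8% of all tested genes, since the table covers part of the genes.

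Of the other genes of the clock pathway, the transcriptional activators were not analysed here, and 20 regulators, outputs and inducers were tested. None passed an adjusted p of 0.05 in either direction in any comparison (limma). In H against C 11 of them had a higher mean and 9 a lower one, with a median log2 difference of 0.03 against 0.02 over all tested genes. In L against C 8 were higher and 12 lower, with a median of -0.01 against 0.03. The genes named here were those with the smallest p over the 3 groups in each list.

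Among the proteins that modify or degrade PER, differences were small. The genes of the phosphatase catalytic subunits, Ppp1cb, Ppp1cc and Ppp5c, were at 31.5 to 39.0, 36.3 to 69.6 and 40.4 to 50.5 FPKM over the 9 libraries. Fbxw11, a ubiquitin ligase adaptor that marks PER for breakdown, was at 36.8 to 62.9 FPKM. Their log2 differences were -0.20 to 0.07 in H against C and -0.18 to -0.02 in L against C.

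Of 4 tested cofactors, 3 had a lower mean in H than in C and 3 in L than in C. Ncor1, the corepressor that REV-ERB alpha recruits, was at 32.3, 21.4 and 27.8 FPKM in the C libraries, 21.4, 21.3 and 16.7 in the L libraries, and 19.4, 21.4 and 24.5 in the H libraries. All L libraries lay below all C libraries, L1 by a margin too small to show at this rounding. Of all tested genes 1.66% had every L library below every C library. The difference was -0.43 ± 0.18 in L against C and -0.29 ± 0.18 in H against C (limma, adjusted p = 0.998 and 0.89). Without C1 and L3 these were -0.19 and -0.16, and H against C was also -0.16 without C1 alone and -0.45 without C2. The NAD-dependent deacetylase gene Sirt1 was at 7.81 FPKM in C1 and 3.42 to 4.85 elsewhere, and the helicase gene Ddx5 at 285 in C1 and 148 to 174 elsewhere. Without C1 the H against C difference of Sirt1 was 0.11 and that of Ddx5 -0.03, in place of -0.20 and -0.31.

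Of 6 tested output genes with a daily rhythm, 1 had a lower mean in H than in C and 1 in L than in C, against 47.3% and 43.7% of all tested genes. Their median log2 differences were 0.18 and 0.23, against 0.02 and 0.03 over all tested genes. Of 9 tested genes of the signals that induce Per1, 2 had a lower mean in H than in C and 4 in L than in C, with medians of 0.18 and 0.02. Both lists hold Sgk1 and Ddit4, and Nampt is among the outputs and the cofactors. Sgk1, a kinase gene induced by glucocorticoids, was at 21.3, 43.3 and 43.3 FPKM in the C libraries, 54.4, 29.4 and 52.7 in the L libraries, and 62.2, 59.4 and 46.5 in the H libraries. All H libraries lay above all C libraries, as in 5.35% of all tested genes, with a log2 difference of 0.68 ± 0.32 (limma, adjusted p = 0.89). Without C1 that difference was 0.35 ± 0.27, and L against C was 0.02 in place of 0.35. Ddit4, an inhibitor of mTORC1 signalling, differed by 0.73 ± 0.28 and the NF-kappaB inhibitor gene Nfkbia by 0.68 ± 0.26 in H against C, both with overlapping groups (adjusted p = 0.89). Per1, which glucocorticoids also induce, stood at -0.07 ± 0.19 in the same comparison.

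Id2, a rhythmic inhibitor of helix-loop-helix factors, was at 93.1, 74.7 and 64.4 FPKM in the C libraries, 56.8, 58.5 and 63.6 in the L libraries, and 61.0, 65.8 and 74.8 in the H libraries. The L libraries lay below those of C without overlap, as in 1.66% of all tested genes, with L3 at 63.6 and C3 at 64.4 closest. The log2 difference was -0.36 ± 0.16 (limma, adjusted p = 0.998), and -0.22 without C1. Prkaca, the catalytic subunit of the cAMP-dependent kinase, differed by 0.35 ± 0.16 in L against C and 0.18 ± 0.16 in H against C (adjusted p = 0.998 and 0.89). Without C1 and L3 these were 0.17 and 0.13.

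Of 12 markers listed for the suprachiasmatic nucleus, the central pacemaker in the hypothalamus, 3 were tested. The lowest or highest levels of each were in C1 and L3, the libraries with the highest regional scores. Which cells these levels came from was not tested. The neuropeptide gene Vip, used also by cortical interneurons, was lowest in C1 with 0.308 FPKM and L3 with 2.18, and lay at 3.98 to 16.5 elsewhere. Its receptor gene Vipr2 was at 8.17 in C1 and 3.31 in L3 and at 0.0829 to 1.46 elsewhere. Lhx1, a gene of the pacemaker and of Purkinje cells, was at 30.7 in C1 and 11.5 in L3 and at 0.016 to 3.67 elsewhere. None of the 3 passed the threshold between groups (limma, adjusted p of 0.89 or more), and their log2 differences had standard errors of 0.79 to 1.39 in the comparisons of H or L with C.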

How the data were processed

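Messenger RNA of 9 libraries was analysed as FPKM. The values had been computed by the authors, and their deposited table also lists transcript lengths. GRCm38 is the build in the submitters' processing notes, while the aligner and counter were not given in the sources used here. Only 20 of 2996 gene starts listed were the same as in GENCODE M21 (GRCm38), so coordinates came from that annotation by Ensembl identifier. FPKM times length gave whole reads within 0.01 for 100% of values in every library, given library totals of 15371513 to 20431208 reads in the scaling. Over the 2996 genes listed, the recovered reads summed to 3008813 to 4153307 per library. FPKM was otherwise used as deposited; limma-voom on the reads called 0 genes.

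Genes over 1 FPKM in at least 3 libraries (2226 of 2996) entered limma 3.58.1 (R 4.3.3) on log2(FPKM + 1), with all 9 libraries, trend and robust moderation, two-sided p and Benjamini-Hochberg adjustment over all tested genes at 0.05. This understates changes of low genes. The fit was tested on simulated counts with known changes, drawn with a negative binomial dispersion of 0.02. In H against C it recovered 64.2% of 1.5-fold and 97% of 2-fold changes. Differences in brain region were not simulated, so this recovery cannot be carried over to these data. Exact permutation used scipy 1.17.1. Replicates differed beyond sampling noise in every pair.

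The members and gene lists were chosen with earlier results of these data known. Named genes were the 4 members, the 3 tested genes of each pathway list with the smallest F-test p, the 3 most and 2 least alike genes per member, and the marker with the highest mean of each list. Gabra6 was added after its values were seen. Alternatives covered pseudocount, filter, scaling, limma-voom on the recovered reads, the samples in the fit, the replicate block, regional covariate, moderation and libraries left out.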

Additional observations from a re-analysis of the deposited data

How the results depend on the processing

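No alternative brought any clock gene past the threshold or called any gene in any comparison. Adjusted p ranged from 0.394 to 1 for Nr1d1 in H against C and from 0.42 to 1 for Hlf in L against C, and both kept their direction under 21 alternatives. Several of these cannot move the estimate, such as the replicate block, the moderation or leaving out libraries of the group not compared. Deviations from group means correlated at -0.51 to 0.68 between same-numbered libraries, and 3 of 9 libraries correlated best with their own number. These deviations also carry the differences in brain region, so they cannot decide whether replicate numbers pair the libraries. Every group holds each replicate number, so the replicate block could not move the group differences. With the block the SE was 0.17 in place of 0.23 for Nr1d1 in H against C. For Hlf in L against C the SE was 0.28 in place of 0.25, and 0 genes were called.

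For the clock genes, directions turned only for log2 differences of 0.19 or less in size, and the cause was not tested. With single libraries left out, H against C ranged from -0.17 to 0.02 for Per1, -0.12 to 0.47 for Cry1 and -0.35 to 0.02 for Hlf. Cry1 ranged from -0.31 to 0.28 in L against C, -0.01 to 0.40 in H against L and -0.21 to 0.38 for the exposed groups against C. H against C ranged from -0.43 to 0.03 for Ppp1cc, -0.02 to 0.13 for Ppp5c, -0.03 to 0.00 for Ppp1cb, -0.31 to 0.06 for Fbxw11, -0.39 to 0.11 for Sirt1, -0.36 to 1.49 for Vip, -1.83 to 0.65 for Lhx1 and -1.17 to 0.37 for Vipr2. L against C ranged from -0.41 to 0.05, -0.06 to 0.00, -0.11 to 0.04, -0.23 to 0.15, -0.21 to 0.29, -1.29 to 0.56, -0.54 to 1.95 and -0.48 to 1.05 for the same genes, and from -0.42 to 0.02 for Ddx5. The correlation ranged from -0.35 to 0.61 for Cry1 and Nr1d1 and from -0.17 to 0.15 for Nr1d1 and Hlf.

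Without C1 and L3, L against C was 0.30 for Cry1, 0.15 for Ppp1cc, 0.14 for Fbxw11, 0.09 for Ddx5, 0.26 for Sirt1 and -0.11 for Sgk1. H against C was 0.03 for Ppp1cc, 0.06 for Fbxw11, 0.11 for Sirt1 and -0.36 for Vip, and Cry1 and Nr1d1 correlated at -0.35. Cry1 in the exposed groups against C was 0.00 under quantile normalization and -0.01 under median-of-ratios scaling. Under quantile normalization Ppp5c was -0.02 in H against C and Vipr2 -0.03 in L against C. With the regional covariate H against C was -0.05 for Vip, 0.29 for Lhx1 and 0.09 for Vipr2, and L against C 0.07 for Vip and -0.08 for Vipr2. Vip in L against C was 0.22 at a pseudocount of 0.1 and 0.33 in limma-voom, where Lhx1 in H against C was 0.13. As deviations from group means, Nr1d1 and Hlf correlated at -0.38.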

Other observations

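Markers of other cell types were present in the table in part, and the most abundant of each list is given here. The cerebellar interneuron and Purkinje gene Pvalb reached 368 FPKM in C1 and 155 in L3, with 31.9 to 85.7 elsewhere. The pallial gene Stx1a was at 1.11 in C1 and 3.35 in L3 and at 27.1 to 109 elsewhere, and the striatal gene Rgs9 was at 30.6 in L1 and 26.5 in H2. The hypothalamic neuropeptide gene Trh was at 29.1 FPKM in L1 and at 0.987 to 5.32 elsewhere, so that L1 held the most of both striatal and hypothalamic markers. The astrocyte gene Aldoc was at 552 in L3 and 455 in C1 against 195 to 305 elsewhere. The oligodendrocyte gene Cnp ranged from 49.1 in L2 to 129 in L3, and the endothelial gene Pecam1 from 4.29 in C2 to 9.73 in L3. The choroid plexus gene Folr1 reached 2.42 in C2. Microglial markers of the list were not analysed here. The part of these cell types in the levels of the clock genes was not tested.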
